A study of Mus musculus with 6 samples.

Results

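The genes of the renin-angiotensin system were followed in bulk RNA-seq of mouse primary somatosensory (S1) cortex with and without whisker stimulation. The 7 genes were Agt, Ace, Agtr1a, Agtrap, Atp6ap2, Lnpep and Enpep, and all 7 were among the 14824 genes of the deposited table. Agt was chosen by its measured values, which were higher in WS than in NS in these same libraries, so its difference is given as a description without a test. The other genes were chosen for the pathway. Of the 7, 6 passed the filter on low counts and were among the 13747 genes tested, while Agtr1a had too few counts to pass. The 3 non-stimulated libraries (NS, titled NW control) and the 3 whisker-stimulated libraries (WS) came from wild-type C57B6 mice at postnatal day 21. No other treatment separated the groups, and WS tissue was collected 90 minutes after the last stimulation. Stimulation was unilateral and repeated each day, and by the study's design NS is the hemisphere on the same side as the stimulated whiskers. Which NS and WS libraries share an animal is not stated for the RNA-seq, so the p-values measure the spread between these libraries.

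In the classical pathway, angiotensinogen is secreted, renin cuts angiotensin I from its end, and angiotensin-converting enzyme turns that peptide into angiotensin II, which acts on the type 1 receptor to raise blood pressure and drive thirst. In the brain, angiotensinogen is made mainly by astrocytes, more so in brainstem and hypothalamus than in cortex. Aminopeptidases then trim angiotensin II to shorter peptides that have receptors and binding sites of their own.

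The counts of each library, derived from the deposited mean, SD and z-scores, totalled between 15660395 and 17276168 over the listed genes. They are given as CPM, counts scaled to a common library size after TMM normalization. Cortical neuron markers were present in each library, with 2330 to 2996 CPM summed over the 6 excitatory markers. Libraries differed in markers of neighbouring tissue. The 9 choroid plexus markers analysed summed to 304.3 CPM in WS replicate 1 and 1012 CPM in WS replicate 2. A single gene, Enpp2, made up 290.9 and 878.6 CPM of these sums. The 10 striatal neuron markers summed to 863.9 CPM in WS replicate 2, against 462.0 to 612.9 CPM in the other 5 libraries. WS replicate 3 differed from the mean of the other libraries by transcript length and GC content. With genes in 4 equal bins of transcript length, the median log2 difference between WS replicate 3 and the other 5 libraries was 0.108 in the longest bin and -0.089 in the shortest. In 4 bins of GC content it was 0.107 in the lowest and -0.097 in the highest. For WS replicate 2 the longest and shortest bins gave -0.033 and 0.013. The NS libraries and WS replicate 1 were not profiled in this way. Over all 13747 tested genes, 4 were called higher in WS (0.0291%) and 0 lower (0.0%), where a call needed a log2 difference beyond 1 and an adjusted p (Benjamini-Hochberg over all tested genes, edgeR quasi-likelihood F test) below 0.05. The 4 calls fell to 0 without NS replicate 2 and to 0 without NS replicate 3. At an unadjusted p under 0.05, 119 genes were higher (0.866%) and 45 were lower (0.327%). Without a limit on the fold change, 5 genes passed the adjusted p, or 0.0364% of those tested, and 11 passed, or 0.08%, when the replicate number was fitted as a block.

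The stretches just upstream of Agt and Ace are shown because these are the genes in which a single WS library stood farthest above the rest. Each line gives the 250 bases before the transcription start from RefSeq on GRCm38.p6, read 5′ to 3′ on the gene's own strand, with matches to the searched motifs in capitals.
Agt (chr8:124569707-124569956, minus strand): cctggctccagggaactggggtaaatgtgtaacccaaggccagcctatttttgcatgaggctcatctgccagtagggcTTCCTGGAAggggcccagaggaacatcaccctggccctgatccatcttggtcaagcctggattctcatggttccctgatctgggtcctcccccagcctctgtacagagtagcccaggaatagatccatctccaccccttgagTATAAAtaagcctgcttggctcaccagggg
Ace (chr11:105967698-105967947, plus strand): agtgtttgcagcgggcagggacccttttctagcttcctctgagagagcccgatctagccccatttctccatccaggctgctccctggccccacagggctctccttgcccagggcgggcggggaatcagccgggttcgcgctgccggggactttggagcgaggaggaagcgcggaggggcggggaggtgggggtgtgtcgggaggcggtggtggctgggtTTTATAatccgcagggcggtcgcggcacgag
The motifs were TATAAA (the TATA box), TTCNNNGAA (the site of STAT factors, which carry interleukin-6 signals), TGTTCT (the core of the glucocorticoid receptor element) and TGACGTCA (the cAMP response element), each searched on both strands. Agt had TATAAA at bases -30 to -25 from its start and TTCCTGGAA, a match to the STAT motif, at -172 to -164. In Ace the only match was TTTATA, which is TATAAA on the other strand, at -31 to -26. Of 32851 RefSeq windows of this length, 12.4% held TATAAA, 7.02% TTCNNNGAA, 16.1% TGTTCT and 1.55% TGACGTCA. The second RefSeq start of Ace, which lies inside the gene, had no match in its window. Of the other members, Enpep had a TATAAA and a STAT match, Atp6ap2 had a TGTTCT match, and Agtrap and Lnpep had none of the 4 motifs. Agtr1a was not searched.

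Compared per kilobase of exon, the genes covered a wide range of levels. Atp6ap2 stood at 91.9 ± 4.58 CPM per kilobase in NS and at 84.0 ± 6.47 CPM per kilobase in WS (SD over n = 3). Agt followed with 8.10 ± 1.64 in NS and 14.2 ± 6.50 in WS (SD over n = 3), and Ace with 4.46 ± 0.295 and 4.79 ± 1.90 CPM per kilobase. Agtrap, at 2.00 ± 0.270 and 1.94 ± 0.124 CPM per kilobase, came next. In each of these 4 genes the level was above that of the next gene in 6 of 6 libraries. Lnpep and Enpep could not be ordered, since their levels ran from 0.538 to 1.28 and from 0.607 to 0.776 CPM per kilobase, and Lnpep was the higher in 3 of 6 libraries. Agtr1a was lowest, with 0.225 ± 0.0392 in NS and 0.0962 ± 0.0367 CPM per kilobase in WS (SD over n = 3). The plot of levels per exon length shows these means for both groups.

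**Figure D1:**
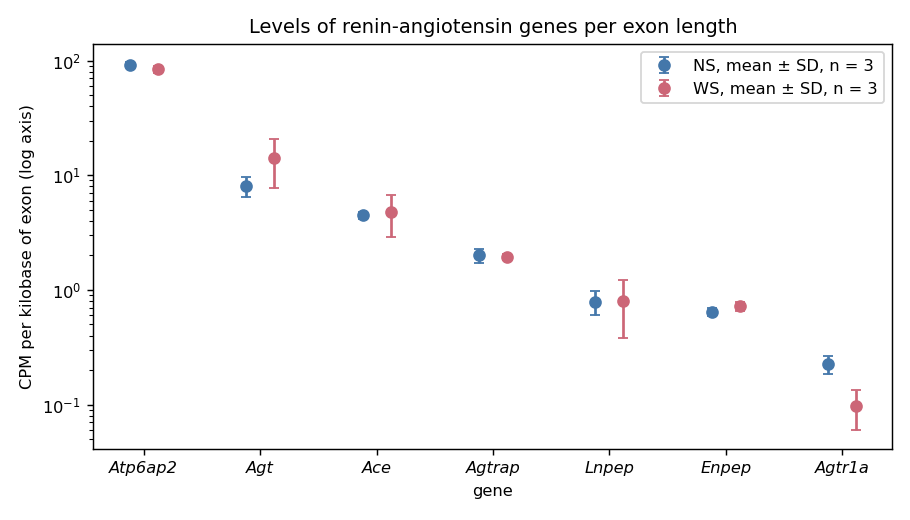
CPM per kilobase of merged exons (log axis) for the 7 genes, as mean ± SD over the 3 NS and the 3 WS libraries. Atp6ap2 lies far above the rest, Lnpep and Enpep overlap, and Agtr1a is lowest at 0.225 in NS and 0.0962 in WS.

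Agt encodes angiotensinogen, the single precursor of all angiotensin peptides (chromosome 8, 124556534 to 124569706, minus strand, GENCODE M21 on GRCm38). Its counts were 294, 241 and 199 in NS replicates 1, 2 and 3, and 332, 321 and 650 in WS replicates 1, 2 and 3. These correspond to 18.5, 15.04 and 12.4 CPM in NS and to 19.7, 19.9 and 41.0 CPM in WS. Each WS library was thus above each NS library, but WS replicates 1 and 2 lay close to NS replicate 1 and WS replicate 3 lay far above all others. WS lay above NS in every library in 3.11% of the tested genes, and the groups did not overlap in either direction in 6.27%. Agt was chosen on this contrast, so nothing is read from it. The counting intervals of NS replicate 1 and WS replicate 1 overlapped. The exact 95% Poisson interval was 16.5 to 20.8 CPM for NS replicate 1 and 17.6 to 21.9 CPM for WS replicate 1. For WS replicate 3 it was 38.0 to 44.3 CPM. The deposited column of WS replicate 3 carries an extra letter in its name (NWS) and was taken as WS because the authors' WS mean includes it. These intervals cover counting error only. The group means were 15.3 ± 3.10 CPM in NS and 26.9 ± 12.3 CPM in WS (SD over 3 libraries a group). The log2 fold change between them was 0.81. Without WS replicate 3 it was 0.37, and with any other library left out it lay between 0.68 and 0.99. The value in WS replicate 3 was 2.07 times that of the next library. A highest library at least 1.3 times the next, a limit set after the values were seen, occurred in 3.53% of tested genes, and in 1.03% with WS replicate 3 as the highest. Agt lies in the bin of shortest transcripts and in that of highest GC content, where the median of WS replicate 3 was below the other libraries. The part of transcript length or GC content in the Agt value was not tested.

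**Figure D2:**
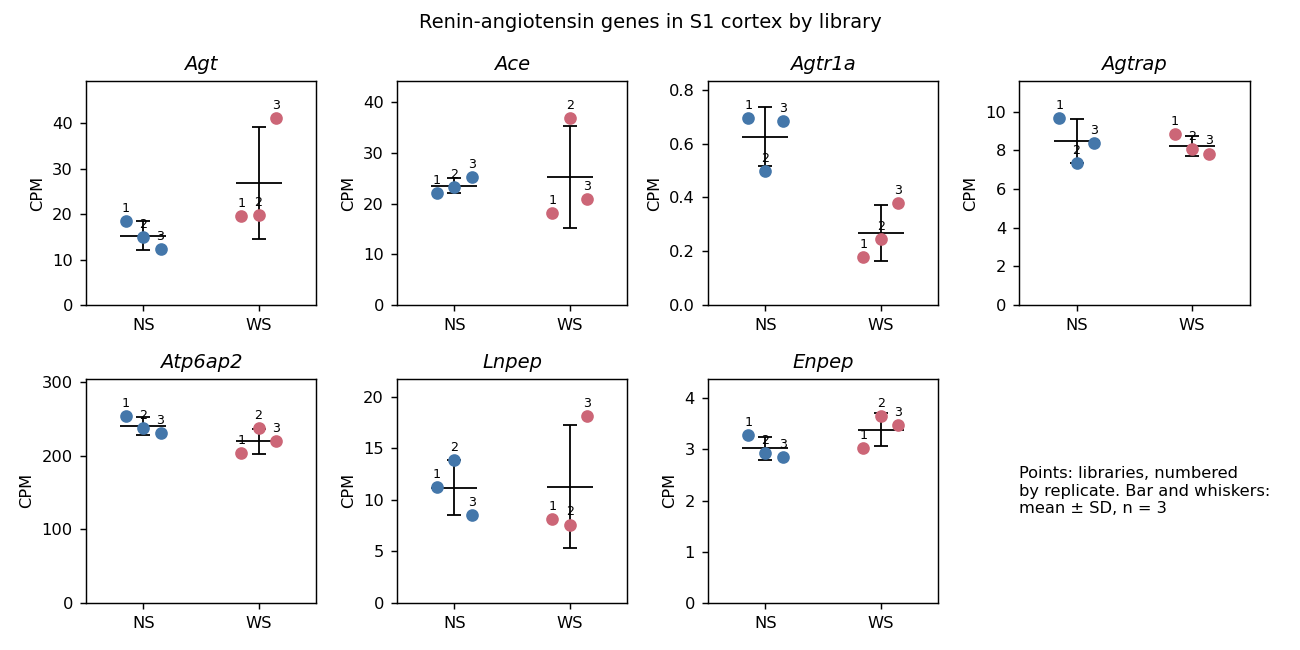
TMM-normalized CPM (vertical axes, from 0) of the 7 genes in each library of NS and WS, with the replicate number above each point and the mean ± SD of 3 libraries as bars. WS replicate 3 stands at 41.0 CPM for Agt and 18.1 CPM for Lnpep, and WS replicate 2 at 36.8 CPM for Ace.

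Markers of astrocytes, the main source of Agt in brain, were compared library by library. The sum of the 10 general astrocyte markers ran from 4587 to 5100 CPM in NS and from 4810 to 5935 CPM in WS, so the groups overlapped, and the highest sum was that of WS replicate 3. All 10 had a positive log2 fold change, with a median of 0.13 against 0.0074 over all tested genes, and in edgeR 0 of the 10 passed a p of 0.05, adjusted or not. With DESeq2 also 0 of the 10 passed the adjusted p. Without WS replicate 3, 6 of the 10 were higher. The highest value, 0.59 for the gap junction gene Gja1, came with a count in NS replicate 3 far under the other libraries (21.6 CPM against 182.7 to 232.9). The lowest was 0.045 for the glutamate transporter gene Slc1a3. Other cell types also had higher markers in WS. All 6 oligodendrocyte markers (median 0.20) and 4 of 5 inhibitory neuron markers (median 0.13) were higher. Of the 6 cortical excitatory neuron markers, 2 were higher and 4 lower (median -0.024). In bulk tissue, more cells of a type and more RNA per cell cannot be told apart.

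A second list held 4 genes that astrocytes outside the telencephalon express more strongly, as they do Agt. Each of the 4 had a higher mean in WS, and the median of their log2 fold changes was 0.34. The glycine transporter gene Slc6a9 had 48.1, 49.6 and 49.8 CPM in NS and 59.1, 60.8 and 61.0 CPM in WS. Its libraries were tight within each group and did not overlap between groups. The matricellular protein gene Sparc had 275.7, 240.5 and 241.7 CPM in NS and 294.4, 285.7 and 373.5 CPM in WS, and the GABA transporter gene Slc6a11 had 162.0, 171.1 and 173.2 against 206.5, 174.4 and 259.9 CPM. Both had their highest value in WS replicate 3, as Agt did. Itih3, which encodes a heavy chain of the inter-alpha-trypsin inhibitor, had 32.6 CPM in WS replicate 3 and 16.3 to 19.7 CPM in the other 5 libraries. The WS libraries were all above the NS libraries in 3 of these 4 genes, against 3.11% of all tested genes. None of the 4 passed the adjusted p of 0.05 (adjusted p = 0.9998 each, edgeR), and DESeq2 passed 0 of the 4. In edgeR 3 had an unadjusted p under 0.05 with WS higher, against 0.866% of all tested genes. The list was chosen with earlier results of these data known, so these counts are a description and no enrichment is read from them. Without WS replicate 3 the log2 fold changes were 0.29 for Slc6a9, 0.20 for Sparc, 0.17 for Slc6a11 and -0.0087 for Itih3. Of the 2 markers of telencephalic astrocytes, Mfge8 had a log2 fold change of 0.097 and Lhx2 one of -0.0044, and without WS replicate 3 they had 0.22 and 0.11. The difference between the lists was not tested. Without WS replicate 3 their medians were 0.17 for the telencephalic and 0.19 for the non-telencephalic list. The telencephalic markers' summed level was lowest in WS replicate 3, at 280.2 CPM, close to the 286.2 CPM of NS replicate 3. Lhx2 was lowest in WS replicate 3, while Mfge8 was lowest in NS replicate 3 (184.5 CPM against 190.3 CPM in WS replicate 3). Thalamic markers, of which 9 were analysed, all had a positive log2 fold change (median 0.21), and 0 of the 9 passed a p of 0.05 in edgeR, adjusted or not. They summed to 107.4 to 143.0 CPM in NS and 120.0 to 145.8 CPM in WS, with the highest sum in WS replicate 3, and without that library 6 of the 9 were higher. Of the 9, 4 were highest in WS replicate 3 and 5 were not. Tcf7l2, a thalamic transcription factor gene, had 14.0 CPM in WS replicate 3 and 6.34 to 8.20 CPM elsewhere. Prkcd, a protein kinase C gene, was lowest there, with 7.96 CPM against 8.68 to 13.9 CPM elsewhere. Of 8 hypothalamic markers 3 were analysed, and they summed to 2.27 CPM in WS replicate 3, within the NS range of 2.06 to 3.34 CPM. Levels this low give no reading on hypothalamic tissue. The part of other cells or tissue in the Agt values was not tested.

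**Figure D3:**
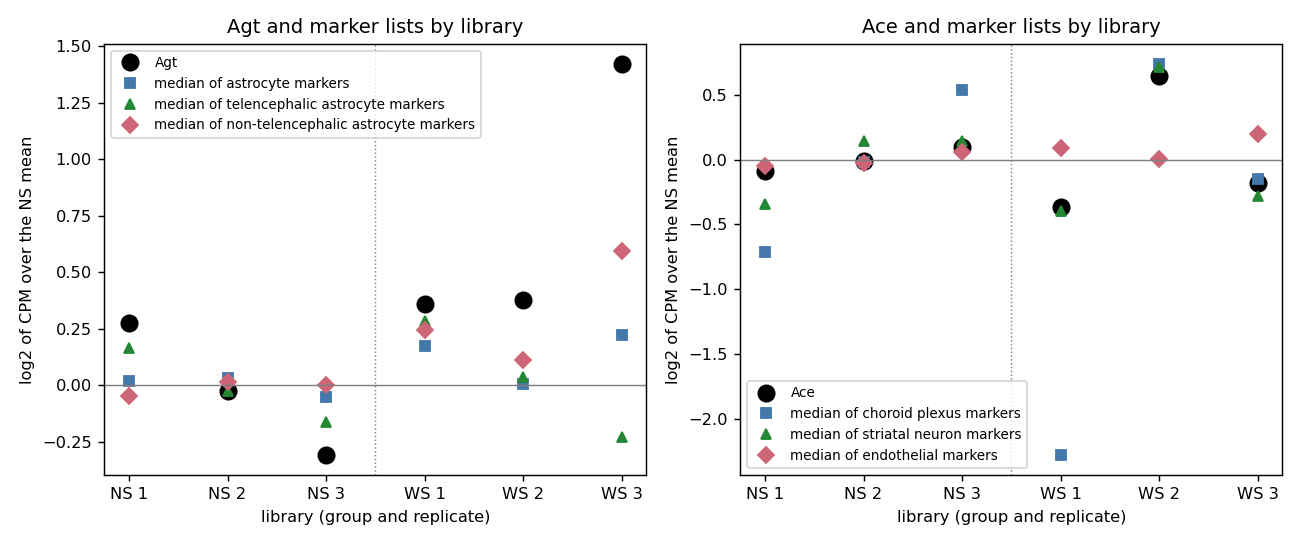
Log2 of each library's CPM over the NS mean (vertical axes) for Agt with 3 astrocyte marker lists (left) and for Ace with choroid plexus, striatal and endothelial lists (right), lists as the median over their genes. In WS replicate 3 the non-telencephalic markers are highest and the telencephalic ones lowest, and in WS replicate 2 Ace, choroid plexus and striatal markers are all at their highest.

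Ace encodes angiotensin-converting enzyme, which is abundant in choroid plexus, on striatal projection neurons and on vessels (chromosome 11, 105967945 to 105989964, plus strand). It had 22.1, 23.3 and 25.2 CPM in NS and 18.2, 36.8 and 20.8 CPM in WS. WS replicate 2 was 1.46 times the next library, while the other 2 WS libraries were the lowest of the 6. The log2 fold change was 0.10 (95% interval -0.36 to 0.56, adjusted p = 0.9998, edgeR), and -0.28 without WS replicate 2. The summed choroid plexus markers were also highest in WS replicate 2 and lowest in WS replicate 1, as Ace was. In NS they summed to 495.0, 705.6 and 887.5 CPM, so NS replicate 3 lay close to WS replicate 2 in these markers, while its Ace level of 25.2 CPM did not. Of their 9 genes 3 had higher and 6 lower WS values, and of the 10 striatal genes 9 had higher ones. Kl, a choroid plexus gene, had 15.8, 19.04 and 35.1 CPM in NS and 4.15, 38.2 and 21.0 CPM in WS, and Otx2 was highest in WS replicate 3, with 8.40 CPM against 7.36 CPM in WS replicate 2. The striatal receptor gene Drd2 had 17.5 CPM in WS replicate 2 and 1.95 to 6.40 CPM elsewhere. Endothelial markers summed to 377.3 CPM in WS replicate 2, within the NS range of 338.2 to 381.9 CPM. All 14 had higher WS values, 8 of them without WS replicate 3, and 0 passed the adjusted p in edgeR. Pecam1 passed it in edgeR with the replicate block (adjusted p = 0.000948) and in DESeq2. The part of choroid plexus, striatal tissue or vessels in the Ace values was not tested. Ace shares exon bases with an antisense gene, Gm11651, and whether counting used strand is not stated.

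Agtr1a encodes the main type 1 receptor of angiotensin II (chromosome 13, 30336441 to 30382867, plus strand). It was counted 11, 8 and 11 times in NS and 3, 4 and 6 times in WS, in all 30 times against 13. Every WS library was below every NS library. Among the 1077 listed genes under the filter, 3.53% had this pattern. In the fit without the filter its log2 fold change was -1.21 (95% interval -2.14 to -0.28), with an unadjusted p of 0.0151 and an adjusted p of 0.9994 in edgeR. DESeq2 gave an unadjusted p of 0.102, and edgeR with the replicate block gave 0.0147 (adjusted p = 0.9999). An exact permutation test over 3 against 3 libraries cannot go below a two-sided p of 0.10, so it could not decide this. At 3 counts the counting error is 57.7% of the value, so the size of the difference is poorly fixed. Agtrap encodes a protein that binds this receptor and promotes its internalization (chromosome 4, 148077061 to 148088031). Its values were 9.65, 7.37 and 8.39 CPM in NS and 8.83, 8.04 and 7.83 CPM in WS. All WS values lay within the NS range, and the 95% interval of the fold change was 0.785 to 1.21.

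Atp6ap2 encodes the (pro)renin receptor, which is also an accessory subunit of the vacuolar proton pump (chromosome X, 12587801 to 12617049). It had 253.8, 237.4 and 230.5 CPM in NS and 203.1, 237.0 and 219.3 CPM in WS. WS replicate 2 lay within the NS range and the other WS libraries below it. The log2 fold change was -0.13 (95% interval -0.31 to 0.046, adjusted p = 0.9998, edgeR). It stayed between -0.20 and -0.076 with each library left out in turn. With the highest counts of the 7 genes, it had the narrowest interval, 0.809 to 1.03 as a fold change.

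The last members are membrane aminopeptidases. Lnpep (chromosome 17, 17521410 to 17625050) encodes the enzyme that binds angiotensin IV and also degrades oxytocin and vasopressin. It had 11.2, 13.9 and 8.51 CPM in NS and 8.12, 7.61 and 18.1 CPM in WS. WS replicate 3 was highest, as in Agt, and the other WS libraries were the lowest of the 6. The log2 fold change of 0.0080 had a wide interval (95%, -0.63 to 0.65), and without WS replicate 3 it became -0.51 (adjusted p = 0.8842, edgeR). Lnpep lies in the bins of longest transcripts and lowest GC content, where the median of WS replicate 3 was raised, and its own log2 difference between WS replicate 3 and the other libraries was 0.85. The part of transcript length or GC content in this value was not tested. Enpep (chromosome 3, 129269175 to 129332720) encodes aminopeptidase A, which makes angiotensin III from angiotensin II and is found on pericytes. Its levels were 3.28, 2.93 and 2.86 CPM in NS and 3.02, 3.65 and 3.47 CPM in WS, and the groups overlapped. The log2 fold change was 0.16 (95% interval -0.26 to 0.58, adjusted p = 0.9998, edgeR). Pericyte and smooth muscle markers summed to 305.8 to 313.4 CPM in NS and 316.1 to 369.7 CPM in WS, with 11 of 12 higher and 0 passing the adjusted p. Without WS replicate 3, 9 of the 12 were higher and the median log2 fold change was 0.059, against 0.14 with all libraries.

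Apart from Agt, 5 members passed the filter and 0 of them passed an adjusted p or an unadjusted p of 0.05, with edgeR and with DESeq2 alike. The intervals in the plot of log2 fold changes show what size of difference remains possible for each gene.

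**Figure D4:**
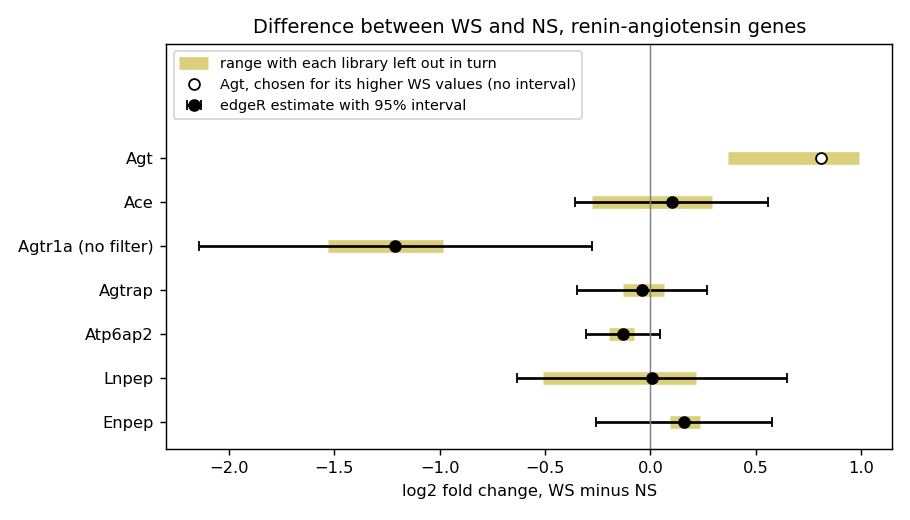
Log2 fold change, WS minus NS, for the 7 genes. Points are edgeR estimates, black lines 95% intervals (none for Agt, which was chosen for its higher values, and Agtr1a from the fit without the filter), and yellow bars the range with each library left out in turn. The intervals of Ace, Agtrap, Atp6ap2, Lnpep and Enpep all include 0.

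Of 24 other genes of the pathway, 15 were analysed and 13 passed the filter. Among these 13, 9 had higher and 4 lower WS values, the median log2 fold change being 0.039, against 53.0% higher over all tested genes. 0 of the 13 passed an adjusted or an unadjusted p of 0.05 with edgeR. Mas1, the receptor of angiotensin-(1-7), had the lowest p, with 24.3, 27.4 and 25.2 CPM in NS and 23.05, 24.1 and 21.2 CPM in WS. Its WS libraries were all below its NS libraries, by little (log2 fold change -0.17, standard error 0.097, adjusted p = 0.9998, edgeR), a pattern that 3.16% of tested genes had. Mme, which encodes the peptidase neprilysin, had 9.15 ± 0.794 CPM in NS and 10.5 ± 1.99 CPM in WS (SD over n = 3). Agtr2, the type 2 receptor gene, and Bdkrb2, a bradykinin receptor gene, were under the filter. The renin gene Ren1 and the second type 1 receptor gene Agtr1b were not analysed here.

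Downstream of the receptor, 20 signalling genes were tested, of which 8 had higher and 12 lower WS values. Their median log2 fold change was -0.010. 0 of the 20 passed an adjusted or an unadjusted p of 0.05 with edgeR. Among those with the lowest p-values were the phospholipase genes Plcb3, with 14.0 ± 0.567 CPM in NS and 15.9 ± 1.67 CPM in WS, and Plcb1, with 228.9 ± 17.9 and 214.4 ± 16.2 CPM (SD, n = 3 each). Of 14 genes for factors and signals known to control Agt, 8 were higher and 6 lower, the median was 0.012, and 0 passed either p. Without WS replicate 3, 5 of the 14 were higher and the median was -0.0015. Stat3 had a log2 fold change of 0.026 and the glucocorticoid receptor gene Nr3c1 one of -0.078. The glucocorticoid response genes Tsc22d3 and Fkbp5 had 0.13 and -0.034. The thyroid hormone receptor gene Thrb had 61.8 ± 5.14 CPM in NS and 54.3 ± 6.76 in WS, the estrogen receptor gene Esr1 2.36 ± 0.112 and 1.78 ± 0.461 CPM, and Cebpb, a factor of the acute phase response, 10.6 ± 1.19 and 11.9 ± 2.35 CPM (SD, n = 3 each).

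The genes whose levels followed Agt most closely over the 6 libraries were Tom1l1, Serpine2, Sparc, Scg3 and Tns1, with Pearson's r of 0.985, 0.979, 0.978, 0.9746 and 0.973 on log2 CPM. All 5 had their highest value in WS replicate 3, as Agt did. Among 9894 genes compared, 47 had an r above 0.9. The 6 points share their libraries and 1 library lies far from the rest, so these values are a description.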

How the data were processed

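Bulk RNA-seq of S1 cortex, 3 NS and 3 WS libraries, was sequenced on the DNBseq platform from RNA accepted at a RIN above 2, a limit that admits degraded RNA. Reads from rRNA and reads of low quality had been discarded by the authors before HISAT2 alignment, and the submitters' notes name mm10. The counting tool is not given in the sources used here. The authors deposited, for each gene, an estimated count as the mean over the 6 libraries, not scaled for depth, with its SD, and a score per library, the z-score. The column of WS replicate 3 has an added letter in its name and was assigned by the WS mean column, which includes it. Columns of the authors' own fold changes and p-values were not used.

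Counts were computed back as mean plus z-score times SD and rounded. In the 13418 of 14824 genes where rounding of the deposited values leaves under 0.1 count of uncertainty, 91.0% of values came within 0.1 of a whole number (20% by chance). The planned count test was used on them. WS was compared with NS by edgeR 4.0.16 (TMM, filterByExpr, quasi-likelihood F test, Benjamini-Hochberg over 13747 genes) in R 4.3.3. DESeq2 1.42.0 was an alternative. The tests were tested on simulated counts. The lowest chi-square per degree of freedom between libraries was 4.49, so no library was a repeat count of another. It does not show that the libraries came from separate mice. Libraries of the same replicate number deviated together (r = 0.342, 0.228 and 0.124 for numbers 1, 2 and 3, over 13747 genes, not independent), so a fit with the number as a block was also made. Legends in the study give 3 mice for RNA-seq and the unstimulated side as NS, so both sides may come from the same mice, but which library came from which mouse is not stated.

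Positions, exon lengths and GC content came from GENCODE M21, promoters from RefSeq. Members and lists were chosen with earlier results of these data known. Genes named are the 7 members, those among the 3 lowest p-values of each pathway list that are reported here, marker genes at the ends of a list, and the 5 genes with at least 10 CPM most like Agt. Itih3, Slc6a11, Sparc, Tcf7l2, Prkcd, Kl, Enpp2, Drd2, Stat3, Nr3c1, Tsc22d3 and Fkbp5 were named after their values were seen. The pathway list held Ren1, Agtr1b, Agtr2, Mas1, Mrgprd, Mme, Anpep, Nln, Thop1, Prep, Prcp, Ctsa, Ctsd, Ctsg, Cma1, Cpa3, Klk1, Dpp3, Rnpep, Aopep, Bdkrb1, Bdkrb2, Nr3c2 and a gene that is counted but not reported here.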

Additional observations from a re-analysis of the deposited data

How the results depend on the processing

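The log2 fold change of Agt was between 0.74 and 0.81 under other normalizations, without the filter, with unrounded counts, in DESeq2 and in the fit with a replicate block, and between 0.37 and 0.99 with each library left out in turn. Over all settings the lowest adjusted p of the other 6 genes was 0.8842, so the block and the other alternatives changed no call among them. Signs were not stable in genes near 0. Lnpep turned from 0.0080 to -0.0576 with the block as the paired fit, to -0.1558 without NS replicate 3 and to -0.5091 without WS replicate 3. Ace turned to -0.2784 without WS replicate 2, and Agtrap to 0.0646 without NS replicate 1. The cause was not tested. With each library left out in turn, the values ran from -0.2784 to 0.2922 for Ace, -0.1302 to 0.0646 for Agtrap and -0.5091 to 0.2163 for Lnpep. The median of the wider pathway list ran from -0.0096 to 0.082, and that of the type 1 receptor signalling list from -0.0499 to -0.0010. The count of genes called higher in all ranged from 0 to 6 and that called lower from 0 to 1 with each library left out, against 4 and 0. At an unadjusted p under 0.05 and any fold change the counts were 119 and 45. The order of the 7 genes by their mean per kilobase over all libraries was the same with the longest transcript as the length. Depth limits Agtr1a most, with 3 to 11 counts in a library.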
